A study of Mus musculus with 8 samples.

Results

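The genes described here are 8 mouse genes for proteins that write or read histone acetylation: the BET genes Brd2 and Brd3, and the acetyltransferase genes Ep300, Crebbp, Kat2a, Kat2b, Kat6a and Kat7. They were taken by name as 8 of 21536 protein-coding genes with a known strand, and every phosphorylated polymerase peak that overlapped a gene or the 3 kb on either side of it was read out. The peaks come from CUT&Tag, in which a transposase is brought by an antibody to the protein of interest and inserts adapters into the DNA beside it, in MEL cells, a mouse erythroleukaemia line. The antibodies recognise the repeated tail of the polymerase subunit Rpb1 phosphorylated on serine 2 (Ser2P) or on serine 5 (Ser5P). There were 4 groups of 2 replicates: Ser2P and Ser5P in the line labelled Myrlin KD, and Ser2P and Ser5P in the line labelled dCAS control. The series title names Myrlin as an RNA from an enhancer of Myb, and its design text calls both lines dCAS, so the control carries that protein too. The labels name no guide, no dCas effector and no clone, and they do not say that replicates came from separate cultures, so the spread behind each p-value is that of these libraries and may be technical.

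Acetyltransferases add acetyl groups to histone lysines and thereby mark active promoters and enhancers, while BET proteins bind acetylated lysines through paired bromodomains and help polymerase pass into elongation. The products of Ep300 and Crebbp, p300 and CBP, are coactivators that blood transcription factors including Myb and GATA1 recruit, and the BET protein Brd3 binds acetylated GATA1. Ser5P is placed on polymerase near gene starts, and Ser2P builds up as polymerase moves through a gene and is usually strongest near its 3′ end.

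With Ser2P, 32125 and 29372 peaks were called in the KD libraries, against 30286 and 20793 in the control libraries. With Ser5P there were 21574 and 24509 in the KD libraries, against 23964 and 25441 in the control libraries. Read totals were not used here, so the relative depth of a library was read from its background pileup. For Ser2P it was 1.13 and 1.04 in the KD libraries, against 0.786 and 0.442 in the controls. For Ser5P it was 0.654 and 0.847 in the KD libraries, against 0.562 and 0.643 in the controls. Median peak width ran from 478 to 533.5 bp in the 4 KD libraries, against 381 to 497 bp in the 4 control libraries. Peak width and depth were thus higher in both KD libraries than in both controls for each antibody, and their part in the differences below was not tested. Of 10 erythroid marker promoters, 6 had a Ser5P peak in all 4 libraries, among them Gata1, Klf1 and Tal1. Hbb-b1, Alas2 and Slc4a1, which mature red cells use strongly, had none. Markers of lymphoid, myeloid and non-haematopoietic cells had no promoter with a Ser5P peak in all 4 libraries, and their summed coverage was 0 to 263 bp per list and library.

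The promoter sequences of 5 genes whose starts behaved differently are shown. For Brd2 they set starts that lay under a peak in every library beside a start that never did. Kat7 had the highest folds, Ep300 and Crebbp are close relatives with unlike promoters, and Kat2b had its peaks away from its listed starts. Each runs 5′ to 3′ in the direction of the gene, from 250 bases before to 50 bases after a RefSeq start on GRCm38.p6. Capitals mark exact matches, on either strand, to the letters searched: GGGCGG for a GC box, CCAAT for a CCAAT box, TATAAA for a TATA box, CCGGAA for ETS factors, AAGATGGCG for YY1, CACGTG for an E-box, TGACGT for cAMP response elements, AGATAA for GATA factors, and the NRF1 palindrome.
Brd2, outer start, chr17:34122558-34122857, minus strand: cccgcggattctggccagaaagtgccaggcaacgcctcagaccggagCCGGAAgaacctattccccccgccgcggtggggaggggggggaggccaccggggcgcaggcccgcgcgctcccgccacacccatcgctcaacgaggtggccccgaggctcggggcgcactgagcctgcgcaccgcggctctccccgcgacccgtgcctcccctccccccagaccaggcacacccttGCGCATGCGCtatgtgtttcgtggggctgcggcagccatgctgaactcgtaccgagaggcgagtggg
Brd2, middle start, chr17:34121698-34121997, minus strand: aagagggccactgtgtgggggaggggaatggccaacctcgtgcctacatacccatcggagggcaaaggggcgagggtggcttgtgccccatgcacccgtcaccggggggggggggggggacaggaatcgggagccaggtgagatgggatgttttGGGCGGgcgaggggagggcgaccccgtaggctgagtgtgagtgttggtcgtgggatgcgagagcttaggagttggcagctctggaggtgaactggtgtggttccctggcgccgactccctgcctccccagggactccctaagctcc
Brd2, inner start, chr17:34119851-34120150, minus strand: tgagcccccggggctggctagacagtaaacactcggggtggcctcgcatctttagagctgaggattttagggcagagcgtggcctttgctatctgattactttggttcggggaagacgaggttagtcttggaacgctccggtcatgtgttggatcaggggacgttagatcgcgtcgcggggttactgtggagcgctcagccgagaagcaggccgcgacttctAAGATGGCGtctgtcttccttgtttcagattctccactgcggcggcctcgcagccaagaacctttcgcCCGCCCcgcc
Kat7, start, chr11:95310197-95310496, minus strand: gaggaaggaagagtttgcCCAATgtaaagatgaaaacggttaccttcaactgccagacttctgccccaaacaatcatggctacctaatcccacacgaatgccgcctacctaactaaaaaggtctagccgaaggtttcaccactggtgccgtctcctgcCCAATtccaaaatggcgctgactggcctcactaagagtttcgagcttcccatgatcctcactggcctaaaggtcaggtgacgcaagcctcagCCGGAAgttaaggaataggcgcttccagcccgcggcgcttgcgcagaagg
Ep300, start, chr15:81585964-81586263, plus strand: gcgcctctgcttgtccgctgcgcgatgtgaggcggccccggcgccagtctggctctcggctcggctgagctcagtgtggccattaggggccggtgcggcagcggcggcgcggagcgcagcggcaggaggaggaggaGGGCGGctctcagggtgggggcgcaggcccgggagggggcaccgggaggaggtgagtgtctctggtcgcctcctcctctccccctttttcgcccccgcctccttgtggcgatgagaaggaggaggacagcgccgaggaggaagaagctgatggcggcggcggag
Crebbp, start, chr16:4213355-4213654, minus strand: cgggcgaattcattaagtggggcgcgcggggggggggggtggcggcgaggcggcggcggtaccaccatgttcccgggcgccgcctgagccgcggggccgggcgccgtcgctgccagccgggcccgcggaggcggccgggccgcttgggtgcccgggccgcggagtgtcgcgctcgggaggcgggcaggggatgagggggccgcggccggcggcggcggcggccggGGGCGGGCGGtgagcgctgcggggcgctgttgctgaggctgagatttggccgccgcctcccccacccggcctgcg
Kat2b, outer start, chr17:53566721-53567020, plus strand: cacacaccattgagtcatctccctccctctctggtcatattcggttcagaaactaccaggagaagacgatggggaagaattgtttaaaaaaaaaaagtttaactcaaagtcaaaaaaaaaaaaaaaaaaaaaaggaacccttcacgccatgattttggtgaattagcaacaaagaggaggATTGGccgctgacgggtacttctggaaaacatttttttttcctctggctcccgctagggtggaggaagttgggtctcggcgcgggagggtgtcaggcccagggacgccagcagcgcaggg

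RefSeq promoters were found for 7 of the 8 genes, with 10 starts in all, and Kat6a is named only. The inner Brd2 promoter holds the YY1 letters, which begin 28 bases before the start (position -28) and which 1.40% of 32851 RefSeq promoters contain. The outer Brd2 promoter holds the NRF1 palindrome at -17, found in 0.971% of promoters, and the ETS letters at -203. The middle Brd2 promoter holds a GC box only. Kat7 has CCAAT boxes at -232 and -92, and the ETS letters begin on its start base. CCAAT occurs in 37.4% and CCGGAA in 14.9% of all promoters. Ep300 has a GC box at -114, and Crebbp has a pair that overlap, at -25 and -21, which 35.7% of promoters have at least once. The outer Kat2b promoter holds a reversed CCAAT box at -70. These matches describe letters in a window and are not evidence of binding.

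Each gene was divided into a promoter (1000 bp on either side of each listed start), a 3′ end (from 1000 bp inside to 3000 bp past the gene's end) and a gene body between them. The number of bp covered by peaks was the measure, since the deposited lists hold no reads. Peaks carry no strand, so a peak between neighbouring genes cannot be given to either.

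**Figure D1:**
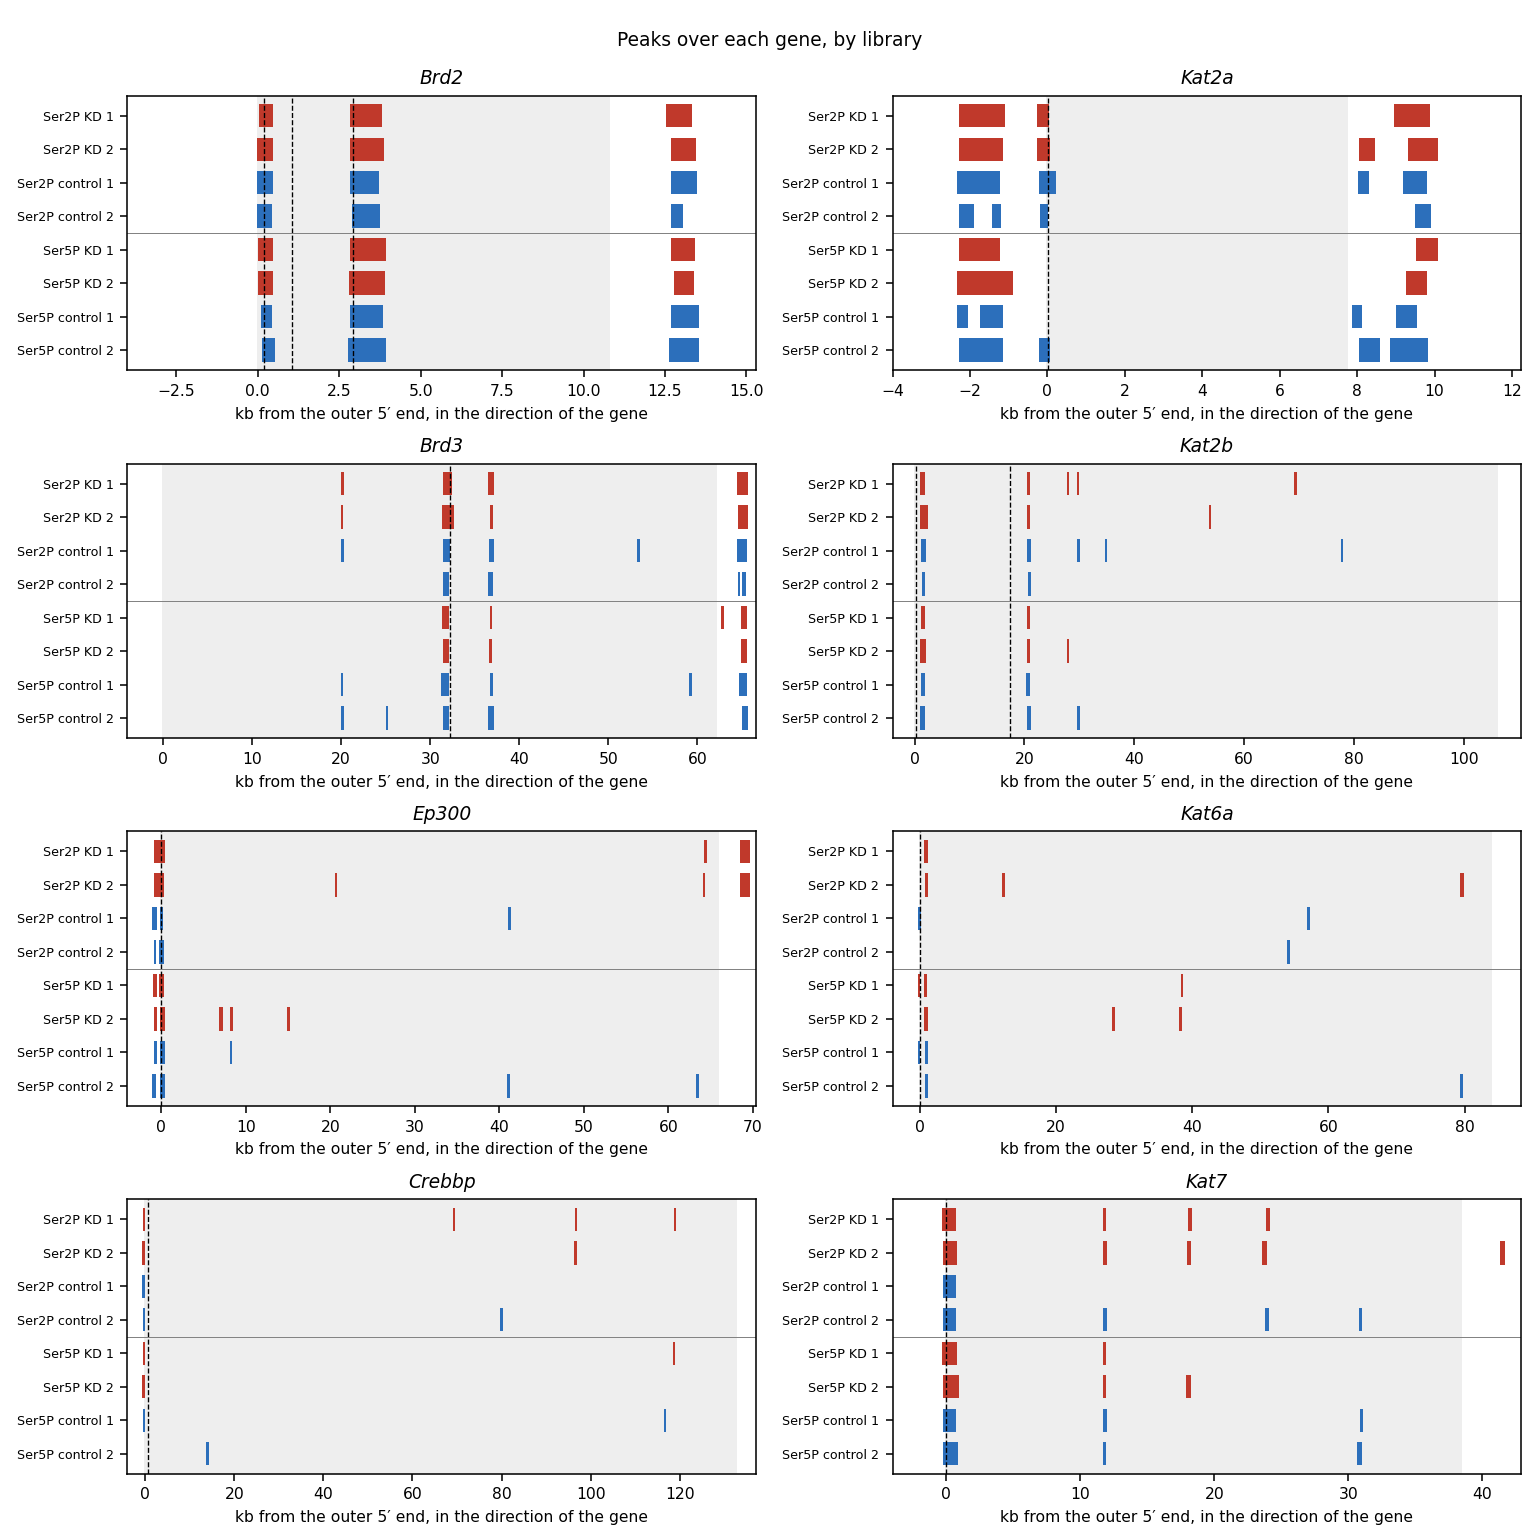
Peaks over the 8 genes in each library, by distance in kb from the outer 5′ end of the gene in its direction of transcription. Red bars are KD and blue bars control peaks, Ser2P above and Ser5P below the line, grey is the gene, and dashed lines are gene starts; the narrowest bars are widened to be seen. Brd2 has 3 sites present in all 8 libraries, while Crebbp and Kat6a have none.

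Joining overlapping peaks over all libraries gave 53 sites at the 8 genes. Of these, 12 were present in all 8 libraries and 21 in 1 library only. All 3 sites of Brd2 were present in 8 libraries, as were 3 of 8 sites of Brd3, 2 of 4 of Kat2a, 2 of 8 of Kat2b, 1 of 9 of Ep300 and 1 of 6 of Kat7. None of the 7 sites of Crebbp or the 8 of Kat6a was. The map of peaks over each gene shows these sites library by library.

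The gene starts themselves differed as much. Of 11 starts listed for the 8 genes, 4 lay under a peak in all 8 libraries, 4 in none and 3 in 1 to 4 libraries. Over all 25307 gene starts the share under a peak was 24.9% in 8 libraries and 58.1% in none. The covered starts were the inner and outer starts of Brd2 and the starts of Ep300 and Kat7. The middle start of Brd2 was in no peak in any library, with the nearest peak edge 546 to 630 bp away. All 3 Brd2 starts lie within the annotated interval of H2-DMa, a neighbouring antigen-processing gene. The site over the outer start is centred inside both genes, so its peaks cannot be given to Brd2 alone. The site over the inner start (chr17:34118865-34120036) is centred inside Brd2 only, but overlaps the H2-DMa interval too.

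Kat2b, which encodes PCAF, had no peak over either listed start. Its sites in 8 libraries were inside the gene, 1.38 kb past the outer start at chr17:53567859-53569211 and 3.49 kb past the inner start at chr17:53587116-53588017. The folds at the inner of these, given by the authors' peak caller over the local background of the same list, were 7.49 to 10.0. Crebbp likewise had no peak over its start, and its promoter site in 7 libraries was centred 840 bp upstream of it.

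Promoter coverage ordered the genes from Kat7 to Kat2b. As a share of the promoter window, mean coverage over the 8 libraries was 52.5 ± 4.17% (SD, n = 8) for Kat7 and 52.1 ± 7.49% for Ep300. It was 42.8 ± 10.6% for Brd3, 30.9 ± 2.23% for Brd2 and 16.5 ± 8.23% for Kat6a. Crebbp had 11.9 ± 5.05%, Kat2a 10.6 ± 8.34% and Kat2b 1.53 ± 1.41%. These SDs span both antibodies and both lines, so they are not the spread of replicates. Every pair of neighbours in this order had overlapping ranges over the libraries, although Brd3 was above Brd2, and Brd2 above Kat6a, in 8 of 8 libraries. The median over the 10815 genes with a promoter peak in any library was 32.4%, and 90.7% of those genes lay below Kat7 and 1.79% below Kat2b. The windows of Brd2 and Kat2b are longer, because they join several starts. In covered bp the order of the BET genes was the reverse, with Brd2 above Brd3 by 223 to 872 bp in 8 of 8 libraries. The Brd2 window is 4708 bp long, against 2001 bp for Brd3.

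**Figure D2:**
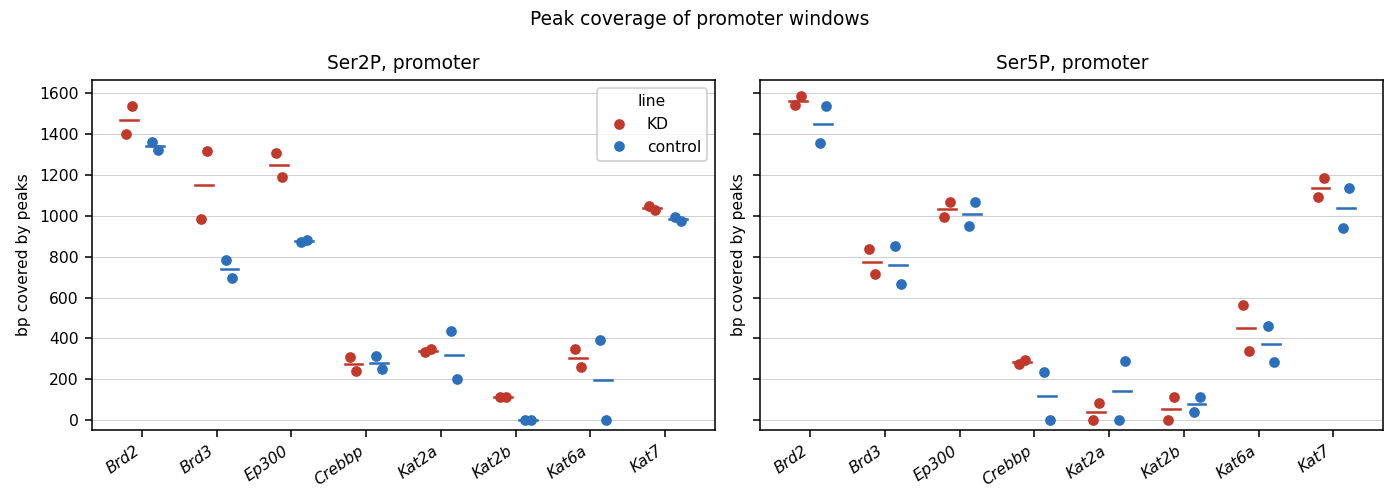
Bp of each promoter window covered by peaks, per library (points) with the mean of the 2 replicates (lines), KD in red left of control in blue, Ser2P in the left and Ser5P in the right panel. Ep300 and Brd3 have Ser2P values in both KD libraries above both controls, and Crebbp, Kat2a and Kat2b stay below 450 bp.

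Both BET genes had promoter peaks with both antibodies in every library. Brd2 promoter coverage by Ser2P was 1402 and 1539 bp in the KD libraries, against 1362 and 1322 bp in the controls. By Ser5P it was 1543 and 1585 bp in the KD libraries, against 1358 and 1539 bp in the controls. For both antibodies the KD values lay above the controls without overlap. The best Brd2 peak had a fold of 4.85 to 7.18 and stood in the top 1.54% to 12.0% of its list.

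Brd3 promoter coverage by Ser2P was 987 and 1316 bp in the KD libraries, against 784 and 696 bp in the controls. The Ser5P values were 838 and 714 bp in the KD libraries, against 851 and 667 bp in the controls. The groups did not overlap for Ser2P and overlapped for Ser5P. The Brd3 start itself was under a peak only in the 2 Ser2P KD libraries, and the other peaks ended up to 197 bp short of it.

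Ep300 and Crebbp, close relatives in sequence and function, differed in polymerase at their promoters. Ep300 promoter coverage by Ser2P was 1306 and 1191 bp in the KD libraries, against 874 and 882 bp in the controls. With Ser5P the coverage was 997 and 1066 bp in the KD libraries, against 952 and 1069 bp in the controls. The Ser2P groups did not overlap and the Ser5P groups did. In both Ser2P KD libraries a single peak spanned the Ep300 start, while each of the other 6 libraries had 2 peaks there, the wider of them 508 to 690 bp. Crebbp promoter coverage by Ser2P was 307 and 240 bp in the KD libraries, against 313 and 250 bp in the controls. For Ser5P, peaks covered 273 and 294 bp in the KD libraries, against 234 and 0 bp in the controls. The window edge cuts this site, whose peak in Ser5P KD replicate 2 was 521 bp wide. The Crebbp Ser5P difference between line means was 166.5 bp, against 0 bp with promoters of 500 bp and 280 bp with promoters of 2000 bp. Ep300 exceeded Crebbp by 561 to 1069 bp, with a median of 748 bp, in 8 of 8 libraries.

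Kat2a and Kat2b encode GCN5 and PCAF, alternative catalytic subunits of the SAGA and ATAC coactivator complexes. Kat2a promoter coverage by Ser2P was 333 and 347 bp in the KD libraries, against 435 and 203 bp in the controls. Ser5P coverage was 0 and 83 bp in the KD libraries, against 0 and 288 bp in the controls, so 3 of 4 Ser5P values lay below every Ser2P value. A larger site upstream was present in 8 libraries. It was centred 111 bp from the start of Hspb9, a small heat-shock protein gene, and 1.35 kb from that of Kat2a. The 83 bp of Kat2a Ser5P coverage are the edge of a peak at this site reaching into the promoter window. Coverage of that upstream stretch by Ser2P was 1205 and 1155 bp in the KD libraries, against 1107 and 616 bp in the controls. Kat2b promoter coverage by Ser2P was 113 and 111 bp in the KD libraries, against 0 bp in both controls. By Ser5P it was 0 and 113 bp in the KD libraries, against 40 and 113 bp in the controls. These Kat2b values are the edge of the intragenic peak reaching into the window.

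Kat6a and Kat7 encode MOZ and HBO1, acetyltransferases of the MYST family that work with BRPF scaffold proteins. Kat7 promoter coverage by Ser2P was 1048 and 1029 bp in the KD libraries, against 997 and 973 bp in the controls. The Ser5P values were 1093 and 1185 bp in the KD libraries, against 941 and 1137 bp in the controls. Its promoter peak, 9.32 to 12.2-fold over background, stood in the top 1.06% to 5.92% of each list. The nearer end of Gm11520, a long noncoding RNA gene, is 170 bp from the Kat7 start, and the peak covers it in all 8 libraries. Kat6a promoter coverage by Ser2P was 348 and 262 bp in the KD libraries, against 390 and 0 bp in the controls. The Ser2P KD peaks lay at chr8:22860095-22860623, a KD-only region for Ser2P, and the control peak at chr8:22859170-22859559. Over all Ser2P regions 5.08% were KD-only. Ser5P had peaks at the former place in all 4 libraries. With Ser5P the coverage was 562 and 338 bp in the KD libraries, against 459 and 285 bp in the controls. The annotated lncRNA Gm46036 overlaps the Kat6a 5′ end.

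Counted over the 8 genes, a promoter peak was present in all 4 libraries of an antibody for 6 genes with Ser2P and 5 with Ser5P. Over all genes that share was 38.5% for Ser2P and 39.9% for Ser5P. No promoter of the 8 had a Ser5P peak in both KD libraries and neither control, or the reverse. Over all genes 0.46% of Ser5P promoters were called in the KD direction and 0.455% in the control direction. Coverage did not overlap between lines, with KD above control, at 5 of 8 Ser2P promoters (Brd2, Brd3, Ep300, Kat2b and Kat7) and 2 of 8 Ser5P promoters (Brd2 and Crebbp). Among all genes with a peak there, 46.7% of Ser2P promoters and 26.3% of Ser5P promoters did the same. The shares of the 8 genes are near those of all genes. With control above KD, 0 of 8 were found for either antibody, against 2.13% of Ser2P and 10.7% of Ser5P promoters.

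The KD and control lines were compared by limma on log2(covered bp + 100) over all genes with a peak, with Benjamini-Hochberg adjustment. For Ser5P promoters 0 of 10298 genes passed an adjusted p of 0.05 (0% called in either direction), while 723 were higher and 215 lower in KD at an unadjusted p under 0.05. The 8 genes had differences from -0.54 for Kat2a to 1.07 for Crebbp. Kat2a had an SE of 0.94 and a limma adjusted p of 0.877, and Crebbp an SE of 0.75 and a limma adjusted p of 0.764. Brd2, Brd3, Ep300 and Kat7 lay within 0.13 of no difference, with SEs of 0.08 to 0.16, beside a median of 0.07 over all genes tested.

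**Figure D3:**
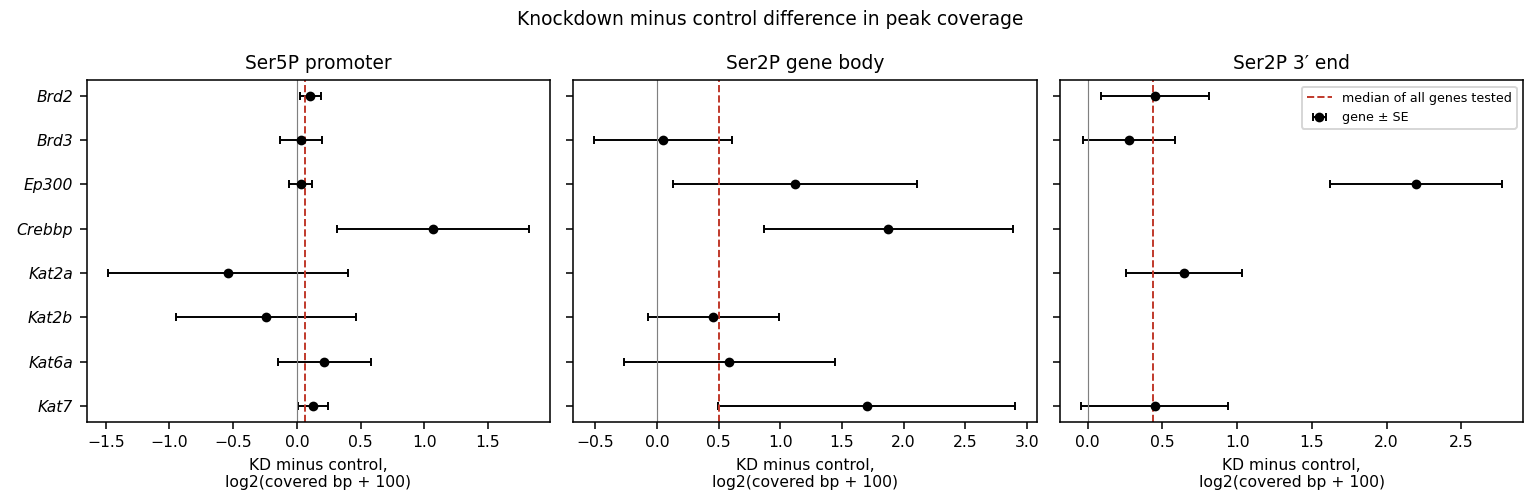
KD minus control difference in covered bp on the log2(covered bp + 100) scale for each gene with a peak (points, bars are limma standard errors), for Ser5P promoters, Ser2P gene bodies and Ser2P 3′ ends. The dashed line is the median of all genes tested, 0.07, 0.50 and 0.44 from left to right, and Ep300 at the 3′ end, at 2.20, lies farthest from it, with control peaks that begin just past its window.

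Within gene bodies the 2 BET genes differed. Brd2, 10.8 kb long, had at most 35 bp of body coverage in any library. Brd3 had a body site in all 8 libraries, centred 4.60 kb past its listed start (chr2:27470474-27471226). The other Brd3 body sites were in 1 or 5 libraries. Kat2a, 7.74 kb long, had no body peak in any library. Ser2P body peaks were present in all 4 libraries at Brd3, Kat2b and Kat6a, or 3 of 8 genes, against 16.8% of all genes. Ser5P body peaks were present in all 4 libraries at those genes and Kat7, or 4 of 8, against 16.0% of all genes. Coverage is not scaled to gene length here.

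Kat2b had the most body coverage, in part from the sites described above. By Ser2P it was 2366 and 2146 bp in the KD libraries, against 2585 and 996 bp in the controls. For Ser5P, peaks covered 1222 and 2007 bp in the KD libraries, against 1488 and 2086 bp in the controls, and neither antibody separated the lines. Kat7 body coverage by Ser2P was 790 and 996 bp in the KD libraries, against 0 and 821 bp in the controls, also overlapping.

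Brd3 was the gene whose Ser5P body coverage did not overlap between lines. Its Ser5P coverage was 270 and 363 bp in the KD libraries, against 960 and 1374 bp in the controls, without overlap. By Ser2P it was 990 and 643 bp in the KD libraries, against 1218 and 474 bp in the controls, with overlap. A site 12.2 kb upstream of the listed start and inside the annotated gene (chr2:27487290-27487716) had Ser5P peaks in 0 KD and 2 control libraries, and Ser2P peaks in 2 KD libraries and 1 control library. With control above KD, 1 of 7 Ser5P gene bodies with a peak did not overlap, against 16.9% of all gene bodies with a peak, so Brd3 alone gives a share near the background. With KD above control it was 0 of 7, against 11.9%. The difference between the antibodies in the KD minus control value of Brd3, an interaction term in limma, was 1.64 (SE 0.69, unadjusted p = 0.0518, limma adjusted p = 0.680).

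**Figure D4:**
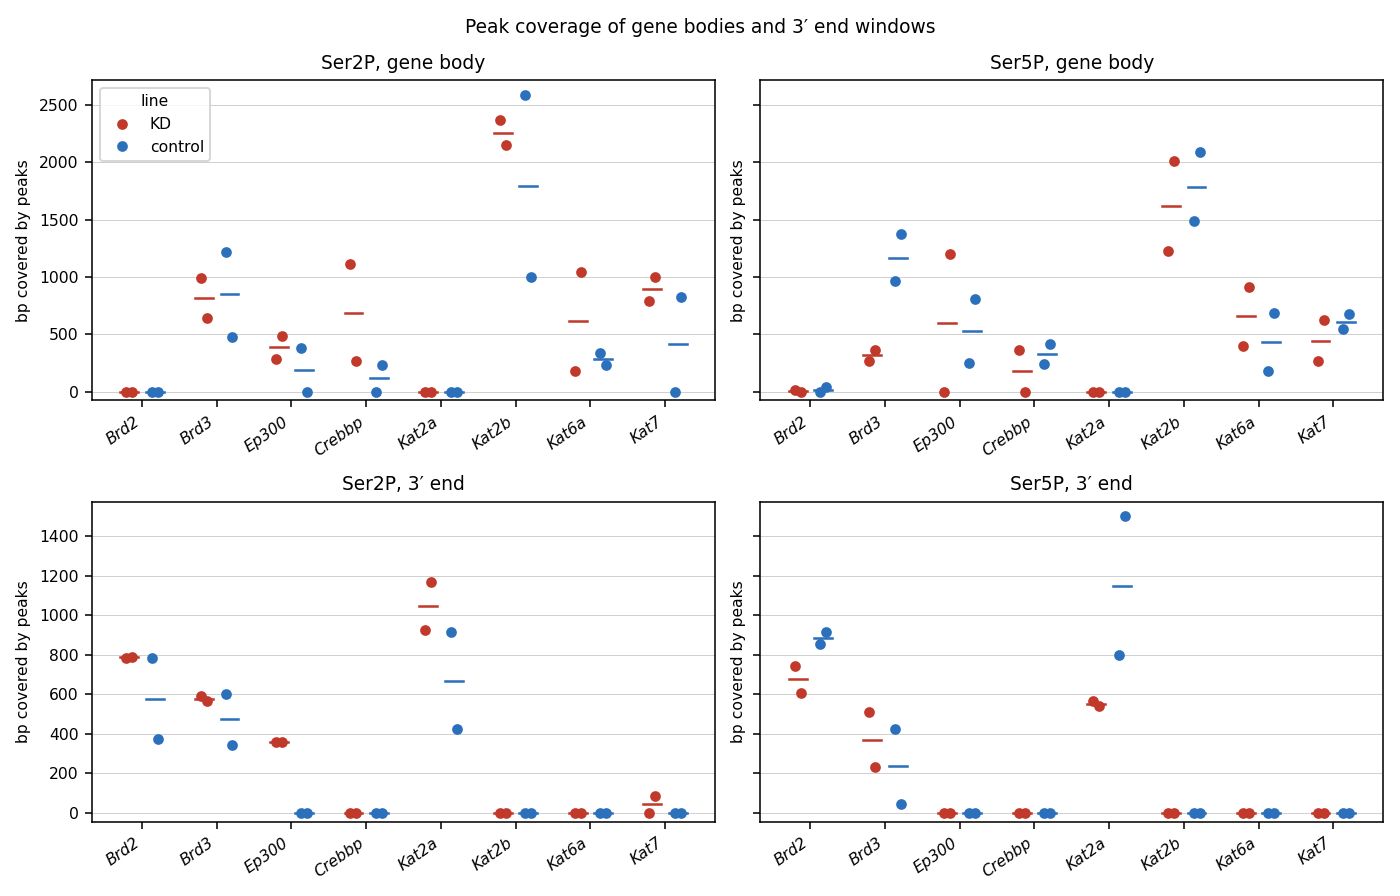
Bp of gene bodies (top) and 3′ ends (bottom) covered by peaks, per library (points) with the mean of the 2 replicates (lines), KD in red left of control in blue, Ser2P left and Ser5P right. The Ep300 3′ end has Ser2P coverage of 360 and 358 bp in KD and 0 in control, whose peaks begin just past the window, and Brd3 body Ser5P is 270 and 363 bp in KD against 960 and 1374 bp in control.

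Crebbp was the gene whose Ser2P body coverage was higher in both KD libraries, at 1111 and 265 bp, against 0 and 228 bp in the controls. That is 1 of 6 gene bodies with a peak, against 29% of all Ser2P gene bodies, and none of 6 had control above KD, against 4.44%. It rested on narrow sites deep in the gene, 1 of them in both Ser2P KD libraries and in no other (chr16:4117152-4117468, 96.1 kb inside). The Crebbp difference between line means, 574 bp, was 0 bp at a −log10 q of at least 5, 120 bp with equal list lengths, 276.5 bp with depth-scaled pileups and 151 bp without KD replicate 1. Ep300 body coverage by Ser2P was 284 and 485 bp in the KD libraries, against 377 and 0 bp in the controls. Kat6a body coverage by Ser2P was 181 and 1046 bp in the KD libraries, against 335 and 228 bp in the controls. Both overlapped between lines.

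No body of the 8 genes had a Ser2P peak in both KD libraries and neither control, or the reverse, beside 2.04% and 0.576% of all genes. Those shares are 439 KD-only and 124 control-only genes, which became 189 and 286 when pileups were scaled to the shallowest library. At a −log10 q of at least 5, Kat6a and Kat7 met the KD-only rule, beside 352 of all 21536 genes. Ep300 met it without control replicate 1, beside 1459 genes. Crebbp and Kat7 met it without control replicate 2, beside 592 genes. In limma 0 of 8257 genes (0%) passed, 631 higher and 125 lower in KD at an unadjusted p under 0.05. The largest difference of the 8 genes was 1.88 for Crebbp (SE 1.01, limma adjusted p = 0.612), beside a median of 0.50 over all genes. The smallest was 0.05 for Brd3 (SE 0.56, limma adjusted p = 0.992).

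In the 3′ windows, polymerase peaks were present in all 4 libraries of each antibody at Brd2, Brd3 and Kat2a, and at none of the other 5 genes. Over all genes 9.49% had Ser2P and 9.04% had Ser5P there in all 4 libraries. These 3 genes differ in what lies beside them. The Brd2 site (chr17:34109264-34110278), centred 2.37 kb past the end of Brd2, is in no annotated gene. The Brd3 site is centred 41 bp from the start of Brd3os and 3.18 kb past the end of Brd3, just outside the window. Only the part inside the window is counted, for example 589 of 1168 bp in Ser2P KD replicate 1. In Ser2P control replicate 2 a separate 275 bp peak of this site had its summit inside the window. Ser5P KD replicate 1 also had a 294 bp peak elsewhere in the window. The Kat2a sites lie inside Dhx58, which encodes the RNA sensor LGP2, and the nearer is centred 59 bp from the Dhx58 start, where polymerase on either gene cannot be told apart.

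Brd2 3′ coverage by Ser2P was 784 and 788 bp in the KD libraries, against 781 and 376 bp in the controls. Ser5P coverage was 745 and 605 bp in the KD libraries, against 852 and 914 bp in the controls. The KD libraries were thus above the controls for Ser2P, the nearest values being 784 and 781 bp, and below them for Ser5P. Without control replicate 2, the shallowest library, the Brd2 Ser2P difference between line means was 5 bp, against 207.5 bp with it. Kat2a 3′ coverage by Ser2P was 927 and 1166 bp in the KD libraries, against 914 and 424 bp in the controls. By Ser5P it was 566 and 540 bp in the KD libraries, against 801 and 1499 bp in the controls, in the opposite direction too, and the Kat2a Ser2P difference was 132.5 bp without control replicate 2, against 377.5 bp with it. The Kat2a site nearest the Dhx58 start had Ser5P peaks in 0 KD and 2 control libraries. Brd3 3′ coverage by Ser2P was 589 and 565 bp in the KD libraries, against 603 and 343 bp in the controls, with overlap.

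At Ser2P 3′ ends 1 of the 8 genes, Ep300, met the KD-only rule, but the call rests on where the window ends. Its 3′ window had 360 and 358 bp of Ser2P coverage in the KD libraries, against 0 bp in both controls, and 0 bp of Ser5P in all 4 libraries. The KD peaks, at chr15:81654718-81655870, are in no annotated gene and cross the edge of the window, which lies 3000 bp past the Ep300 end. Both controls had a Ser2P peak at the same place that began 3168 and 3136 bp past the Ep300 end, just outside the window, so the merged region, chr15:81654718-81655880, was in all 4 Ser2P libraries. These peaks were 1153 and 1140 bp wide in the KD libraries, against 636 and 454 bp in the controls, and the authors' folds were 2.61 and 3.05 in the KD libraries, against 2.94 and 3.18 in the controls. The next start, of L3mbtl2, is 8.86 kb from the middle of the KD peaks. Beside this call, 1.63% of all genes were KD-only and 0.26% control-only for Ser2P at the 3′ end, or 350 and 56 genes, which became 141 and 122 with scaled pileups. The call was absent when lists were made equally long, when pileups were scaled to the shallowest library, at a −log10 q of at least 5, and when the summit had to lie in the window.

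In limma on Ser2P 3′ ends, 0 of 5545 genes (0%) passed, with 507 higher and 50 lower in KD at an unadjusted p under 0.05. Ep300 had the largest difference of the 8, 2.20 (SE 0.57, unadjusted p = 0.0207, limma adjusted p = 0.437), beside a median of 0.44 over all genes. Its limma adjusted p was 0.0138 without KD replicate 1 and 0.00566 without KD replicate 2, fits in which the lone KD library is assumed to vary like the controls, both at 0 bp because their peaks begin past the window. Kat7, with 0 and 86 bp in the KD libraries, against 0 bp in both controls, had a limma adjusted p of 0.595, and of 0.0138 without KD replicate 1, and its 86 bp are the edge of a site inside the neighbouring gene Tac4. With no filter on uncovered genes and no variance trend, the Ep300 limma adjusted p was 0.000291, at an SE of 0.0032, against 0.57. Ser2P 3′ coverage did not overlap at 3 of 5 genes with a peak, KD above control, against 29.3% of all genes, and at 0 of 5 with control above KD, against 2.61%. For Ser5P it was 2 of 3 with control above KD, against 10.1%, and 0 of 3 with KD above control, against 15.8%.

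Ser2P and Ser5P were compared over all 8 libraries with the line as a term. At promoters limma called 10 genes higher with Ser2P and 40 lower, or 0.0925% and 0.37% of 10815, and none was among the 8. Kat2a had the largest difference, 1.37 (SE 0.54, unadjusted p = 0.0351, limma adjusted p = 0.397), from Ser2P coverage of 203 to 435 bp and Ser5P coverage of 0 to 288 bp. Kat6a was the lowest, at -0.74 (SE 0.53, limma adjusted p = 0.619). In gene bodies 0 of 9064 genes (0%) passed, with 581 higher and 182 lower at an unadjusted p under 0.05. At 3′ ends 4 were higher and 4 lower of 6169 (0.0648% each), again none of the 8. Brd3 and Ep300 had 3′ differences of 0.80 (SE 0.43) and 1.10 (SE 0.55), both with a limma adjusted p of 0.553. The interaction of antibody and line was called at no promoter, body or 3′ end (0% of 10815, 9064 and 6169 genes, with 796, 568 and 380 higher and 101, 104 and 61 lower at an unadjusted p under 0.05). For Ep300 it was 0.43 at the promoter (SE 0.14, limma adjusted p = 0.474) and 2.20 at the 3′ end (SE 0.55, limma adjusted p = 0.362).

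As merged regions of a single antibody, the 8 genes held 42 Ser2P and 38 Ser5P regions. Of the Ser2P regions 15 were in all 4 libraries, 4 were KD-only and none control-only. Over all 48136 Ser2P regions 30.0% were in all 4 libraries, 5.08% KD-only and 1.59% control-only. Of the Ser5P regions 15 were in all 4 libraries, 1 was KD-only and 3 were control-only. Over all 37530 Ser5P regions 38.3% were in all 4 libraries, 2.19% KD-only and 4.1% control-only. The Ser5P KD-only region was in Kat6a, 38.3 kb past its start (chr8:22897464-22898089).

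Genes of the same pathway were read from 5 lists with 99 genes: 13 other acetyltransferases, 33 partners in acetyltransferase complexes, 23 other bromodomain proteins, 21 histone deacetylases and corepressors, and 9 BET partners. Their Ser5P promoters were marked in all 4 libraries for 86 of 99, against 39.9% of all genes. Of these promoters 0 were KD-only or control-only, beside 0.46% and 0.455% of all genes. Limma called none of the 99 in any of the 3 KD comparisons. At Ser2P 3′ ends 3 of 99 were KD-only and 0 control-only, beside 1.63% and 0.26% of all genes. Tada2b, an adaptor of SAGA, had 514 and 719 bp in KD and 0 bp in control. Trrap, the scaffold of several acetyltransferase complexes, had 409 and 670 bp in KD and 0 bp in control. Brd8, a TIP60 complex bromodomain protein, had 375 and 587 bp in KD and 0 bp in control. In Ser2P gene bodies 1 of 99 was KD-only, the testis BET gene Brdt with 590 and 293 bp in KD and 0 bp in control. Another 2 were control-only, where the shares of all genes were 2.04% KD-only and 0.576% control-only. Supt3, a SAGA subunit, had 0 bp in KD and 267 and 460 bp in control, and Ccnt1, a cyclin of the elongation kinase P-TEFb, had 0 bp in KD and 273 and 239 bp in control. The medians of the list differences for Ser5P promoters were 0.09 to 0.14, beside 0.07 for all genes. They were 0.21 to 0.82 for Ser2P gene bodies, beside 0.50, and -0.62 to 0.82 for Ser2P 3′ ends, beside 0.44.

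For each of the 8 genes the profile of log2(covered bp + 100) over 24 values, 3 gene parts in 8 libraries, was compared with that of every other gene. The likeness is a description, since the values share libraries and depth. The closest gene was Mepce for Brd2 (Pearson r = 0.993), Zfp369 for Kat2b (0.985), Tas1r1 for Kat2a (0.963), Crebrf for Kat7 (0.961) and Samsn1 for Kat6a (0.957). It was Tex264 for Ep300 (0.946), Slc25a21 for Crebbp (0.878) and Tmod3 for Brd3 (0.841). Between the 8 genes themselves the highest r was 0.754, for Crebbp and Kat7, and the lowest was -0.90, for Brd2 and Kat2b.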

How the data were processed

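Peak lists of 8 CUT&Tag libraries, called by the authors for each library apart, were used. The submitters' processing notes list MACS2 2.2.7.1, Bowtie2 2.3.5, cutadapt 2.7, Picard 2.21.4, SAMtools 1.9 and deepTools 3.3.1, and the build GRCm38 (mm10). Settings and any control library are not given in the sources used. Besides positions, the deposited columns hold a display score, the fold over local background as a ratio, −log10 p and −log10 q. Fold and rank describe peaks within a list only.

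From these, covered bp per gene part were computed with Python 3.11.15, numpy 2.4.6 and pandas 2.3.3. Gene intervals and starts were RefSeq GRCm38.p6, with starts from the promoter table for 17492 genes and the outer end for 4044 genes, Kat6a among them. Where the promoter table held no entry, strand was taken by symbol or synonym from GENCODE vM1, whose coordinates were not used, and 351 genes without a strand were left out. A gene part had a peak where at least 1 bp overlapped. KD-only means a peak in both KD and neither control library, and control-only the reverse. An exact two-sided permutation test of 2 against 2 cannot go below p = 0.333, so tests were limma 3.58.1 in R 4.3.3 (empirical Bayes with a trend) on log2(covered bp + 100), over all genes with a peak in the libraries of the fit, with Benjamini-Hochberg adjustment over all genes and a threshold of 0.05. The limma fit was tried on simulated promoter values only, which do not cover gene bodies, 3′ ends or fits that leave out a library. Relative depth is the most frequent background pileup, solved from fold and −log10 p with a tolerance of 0.001.

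The 8 genes, the 5 lists and the markers were chosen with earlier results of these data known. All 8 genes are named, with up to 4 called genes per list, comparison and direction, by covered bp in the marked libraries. Alternatives tried were lists of equal length (20793 peaks), depth-scaled pileups, 200 bp of overlap, the summit inside the part, promoters of 500 or 2000 bp, a pseudocount of 10 bp, a −log10 q minimum of 5, no filter, centred libraries, a replicate block and leaving out each library. Fits with no filter were also run without the trend, since most genes then have no covered bp. The outer gene end as the only start was added after seeing the data.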

Additional observations from a re-analysis of the deposited data

Results flagged for a closer look

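For 2 genes the KD minus control difference ran in opposite directions for the 2 antibodies at the 3′ end. Both KD libraries lay above both controls for Ser2P and below both controls for Ser5P. How many of all genes share both directions was not counted. Among all genes with a Ser2P peak there, 29.3% had KD above control without overlap. For Ser5P, 10.1% had control above KD. At Brd2 the Ser2P difference minus the Ser5P difference was 0.80 on the log2(covered bp + 100) scale. The limma adjusted p of this interaction was 0.615 over all genes. Without control replicate 2 the Brd2 Ser2P lines differed by 5 bp, against 207.5 bp. At Kat2a, where the window also holds the 5′ end of Dhx58, the same term was 1.52, with a limma adjusted p of 0.549. The Kat2a Ser2P lines differed by 132.5 bp without that library, against 377.5 bp. Neither difference passed the threshold, and the median of the same term over all genes tested at the 3′ end was 0.35.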

How the results depend on the processing

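With equal list lengths 152 Ser5P promoters were KD-only and 75 control-only, against 99 and 98 in the counts reported. For Ser2P gene bodies, KD-only and control-only counts of 439 and 124 became 238 and 238 with equal list lengths, and 189 and 286 with depth-scaled pileups. For Ser2P 3′ ends, 350 and 56 became 184 and 86 with equal list lengths, and 141 and 122 with depth-scaled pileups, so KD-only calls then exceeded control-only calls far less or not at all. At a −log10 q of at least 5, 31 3′ ends were control-only. Of the 8 genes, 2 (Kat6a and Kat7) had KD-only bodies at that q, against 0 in the counts reported. Over all 21536 genes, 352 bodies were KD-only and 105 control-only at that q. Ep300, the only KD-only 3′ end among the 8, whose site has control peaks just past the window, was lost (0 of 8) at that q, with equal lists, with depth-scaled pileups and with the summit inside the window. The KD fits called 0 genes, but 47, 153 and 108 (Ser5P promoter, Ser2P body, Ser2P 3′ end) without the filter on uncovered genes and without the trend. With centred libraries 11 Ser2P bodies were called.

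Between antibodies the 50 promoter calls became 3 with the replicate block and 6 with a pseudocount of 10 bp. The body count of 0 became 4 (−log10 q of at least 5), 6 (equal lists), 1 (pseudocount of 10 bp), 25 (no filter) and 56 (centred). The 8 calls at 3′ ends became 4 with the replicate block, 24 at the higher q, 30 with equal lists, 5 with depth-scaled pileups, 3 with a pseudocount of 10 bp, 39 without a filter and 41 with centred libraries. The cause was not tested for any of these. Replicate numbers were not used to pair the libraries in the reported fits, since the labels name no shared batch. Deviations of same-numbered KD and control libraries correlated at 0.0129, 0.00977 and 0.0115. Those of same-numbered Ser2P and Ser5P libraries of a line correlated at -0.0369 to 0.00275. Such correlations cannot show whether same-numbered libraries came from the same culture.

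Leaving out each library gave 187 to 310 KD-only and 212 to 285 control-only Ser5P promoters, with 0 to 1 of the 8 genes in each direction (Crebbp KD-only without Ser5P control replicate 1, Kat2b control-only without Ser5P KD replicate 2). Ser2P bodies gave 592 to 1459 and 265 to 602, with 0 to 2 of the 8 genes KD-only and 0 to 0 control-only. Ser2P 3′ ends gave 439 to 985 and 126 to 534, with 1 to 2 of the 8 genes KD-only and 0 to 0 control-only. The limma KD counts ran from 0 to 291, 0 to 1042 and 0 to 1016, and those between antibodies from 0 to 10 (promoter), 0 to 0 (body) and 0 to 10 (3′ end). Over 627 tests of the 8 genes in 96 fits, 4 passed, 3 of Ep300 and 1 of Kat7, all at Ser2P 3′ ends. Replicates number 2 per group and depth differs between lines, which limits every comparison here.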
